A study of Homo sapiens with 22 samples.

Results

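The placement of 3 chromatin targets relative to each other was examined in 22Rv1 cells that overexpress H1-10 (H1-10 OE). 22Rv1 is an established human prostate cancer cell line, and H1-10 is a variant of the linker histone, which binds DNA where it enters and leaves the nucleosome. The members were the peak lists of H3K27me3, Pol2S5p and E2F3 whose labels give H1-10 OE as the state of the cells. They make up 3 of the 8 lists of the series, 3 of its 22 samples, and 63317 of its 291055 listed regions.

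ChIP-seq, in which chromatin bound to an antibody is sequenced, was compared by the peak lists deposited for single libraries. The same 3 targets in 22Rv1 cells labelled Ctrl served as the reference, and a Pol2S5p list from cells with a control siRNA (siCtrl), whose H1-10 state the labels do not give, served as another polymerase list. The labels do not say how H1-10 was overexpressed or whether a single clone was used. Each target had 1 library per state and no replicate, so no p-value is given, and intervals are 95% intervals that cover counting error only.

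H3K27me3 is the trimethyl mark that Polycomb repressive complex 2 places on histone H3, and it is known for broad domains over silenced developmental genes. Pol2S5p is RNA polymerase II with a phosphate on serine 5 of its tail, the form that gathers at gene starts as transcription initiates. E2F3 is a DNA-binding factor of the RB pathway that acts mainly near the starts of cell cycle genes, where initiating polymerase also gathers.

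In H1-10 OE cells the H3K27me3 list held 18395 regions over 10.1 Mb, the Pol2S5p list 40626 regions over 39.1 Mb and the E2F3 list 4296 regions over 1.95 Mb. In Ctrl cells these lists held 2540, 35493 and 22988 regions. The H3K27me3 regions of H1-10 OE were short for this mark, with a median width of 433 bp, against 641 bp for Pol2S5p and 381.5 bp for E2F3. In H1-10 OE 19.0% of the H3K27me3, 59.3% of the Pol2S5p and 57.4% of the E2F3 regions had a −log10 q of 5 or more. Chromosome Y carried 0, 0 and 1 regions of H3K27me3, Pol2S5p and E2F3 in H1-10 OE and 2, 26 and 2 in Ctrl, while chromosome X carried 1319 H3K27me3 regions in H1-10 OE and 0 in Ctrl. Whether the cells of the 2 states differ in more than H1-10 was not tested. Read depth is unknown here, and an absent region is not proof that a target was absent.

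Most joined regions of H1-10 OE held a single target. Joining every region that overlapped or touched another gave 61812 joined regions, of which 1445 (2.34%, 2.22 to 2.46%) held more than 1 target. In Ctrl 14117 of 44941 joined regions (31.4%, 31.0 to 31.8%) did. List length bounds this share, and the E2F3 list had 4296 regions in H1-10 OE against 22988 in Ctrl. Pol2S5p alone made up 39164 joined regions of H1-10 OE (63.4%), H3K27me3 alone 18205 (29.5%) and E2F3 alone 2998 (4.85%).

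Nearly all joint regions of H1-10 OE were pairs of polymerase and E2F3. Pol2S5p with E2F3 accounted for 1271 joined regions (2.06%, 1.95 to 2.17%), against 13911 (31.0%) in Ctrl. H3K27me3 with Pol2S5p accounted for 172 (0.278%, 0.240 to 0.323%), against 6 in Ctrl. H3K27me3 with E2F3 and no polymerase was found at 0 of the 61812 joined regions of H1-10 OE, which allows a share of up to 0.00485% by a limit of 3 counts, and at 183 in Ctrl. All 3 targets met at 2 joined regions of H1-10 OE and 17 of Ctrl. The joint regions of H1-10 OE with H3K27me3 and Pol2S5p were the widest, with a median of 1317.5 bp, against 843 bp for Pol2S5p with E2F3 and 360 bp for E2F3 alone.

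**Figure D1:**
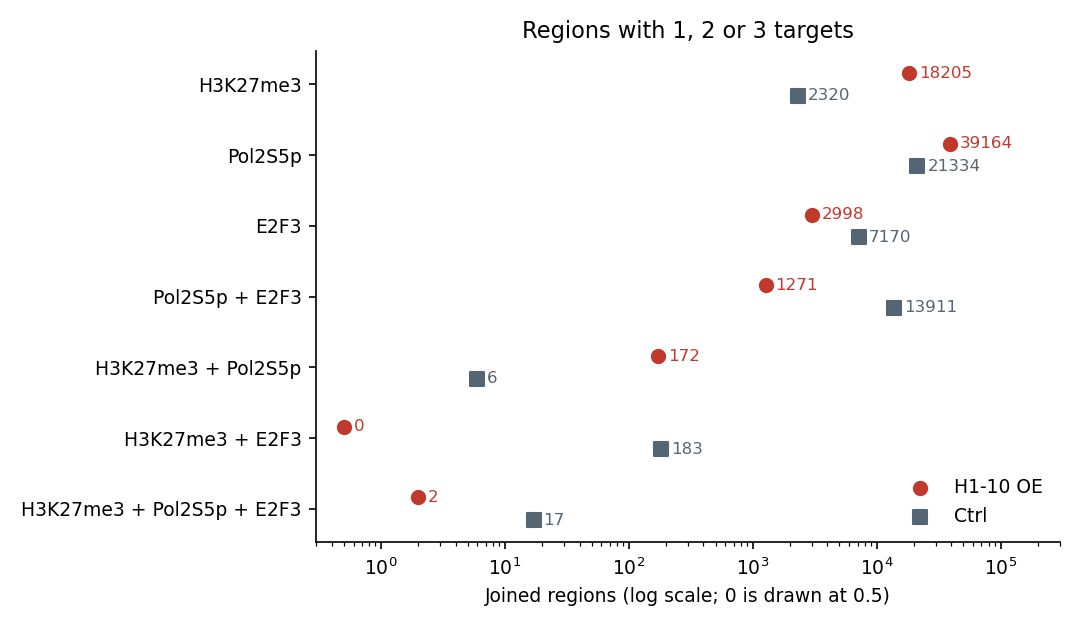
Number of joined regions (horizontal log axis) that hold 1, 2 or 3 of the targets in H1-10 OE (red circles) and Ctrl (grey squares), 1 library per target and state. Pol2S5p with E2F3 numbers 1271 in H1-10 OE and 13911 in Ctrl, and H3K27me3 with Pol2S5p numbers 172 in H1-10 OE and 6 in Ctrl.

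Seen from each list of H1-10 OE, E2F3 was the target most often found on another. Of its 4296 regions, 1298 overlapped a Pol2S5p region by at least 1 bp (30.2%, 28.9 to 31.6%), while the Pol2S5p list covered 1.30% of the spanned genome. In the other direction 1279 of 40626 Pol2S5p regions of H1-10 OE overlapped E2F3, or 3.15%. The shared stretches came to 529 kb, or 27.1% of the length of the E2F3 list.

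Few H3K27me3 regions of H1-10 OE met polymerase. Of the 18395 H3K27me3 regions of H1-10 OE, 190 overlapped Pol2S5p, or 1.03% (0.897 to 1.19%), beside a Pol2S5p coverage of 1.30%. In reverse 185 Pol2S5p regions of H1-10 OE overlapped H3K27me3, or 0.455%, beside an H3K27me3 coverage of 0.337%. Shares by 1 bp count regions and coverage counts bases, so these are unlike measures. By length only 65.4 kb was shared, or 0.646% of the H3K27me3 length, beside the Pol2S5p coverage of 1.30%. The same stretch was 0.167% of the Pol2S5p length, beside the H3K27me3 coverage of 0.337%. H3K27me3 and E2F3 of H1-10 OE overlapped at 2 regions, which are 0.0109% of the H3K27me3 list and 0.0466% of the E2F3 list.

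The E2F3 list of H1-10 OE thus shared a smaller part of itself with polymerase than the E2F3 list of Ctrl did. The share was 30.2% in H1-10 OE and 68.0% (15630 of 22988 regions) in Ctrl, a difference of −37.8 percentage points (−39.3 to −36.3). The share of H3K27me3 regions that overlapped E2F3 was 0.0109% in H1-10 OE and 8.27% in Ctrl, a difference of −8.26 points (−9.39 to −7.25). By 50% reciprocal overlap that difference was −1.21 points, and by the summit inside the other region −2.51. The share of H3K27me3 regions on Pol2S5p was 1.03% in H1-10 OE and 0.748% in Ctrl, and the interval of that difference, −0.154 to 0.596 points, spans 0. Among regions with a −log10 q of 5 or more it was 1.36 points (0.507 to 1.89), which does not span 0. The shares moved with the peaks used. With equal numbers of the strongest peaks of each list, E2F3 on Pol2S5p came to 6.54% and H3K27me3 on Pol2S5p to 0.116% in H1-10 OE, and with the siCtrl polymerase list to 18.2% and 1.89%.

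Where E2F3 and Pol2S5p of H1-10 OE overlapped, their summits were close. Only overlapping pairs were measured, so the widths of the regions bound these distances. The summit is the base of highest signal that the authors' caller gave within a peak. Over the 1304 overlapping pairs of H1-10 OE the summits lay a median of 96 bp apart (89 to 105), with quartiles of 40.75 and 210 bp. In 666 pairs (51.1%, 48.4 to 53.8%) they were within 100 bp, and in 1196 (91.7%) within 500 bp. The E2F3 summit lay on the side of lower coordinates in 659 pairs, on the other side in 640 and on the same base in 5, so the offset had no preferred side relative to the chromosome. In Ctrl the 15855 pairs had a median of 129 bp (127 to 132), and 40.9% were within 100 bp. The lists of Ctrl had wider regions, with medians of 578 bp for E2F3 and 765 bp for Pol2S5p, against 381.5 and 641 bp in H1-10 OE.

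Overlaps of E2F3 with Pol2S5p in H1-10 OE were seldom marginal. In 590 of the 1304 pairs (45.2%) the E2F3 region lay wholly inside the Pol2S5p region, in 311 (23.8%) the Pol2S5p region lay inside the E2F3 region, and in 403 (30.9%) the 2 were staggered. The overlap was under 100 bp in 18 pairs (1.38%), and its median was 375 bp. Only 21 Pol2S5p regions of H1-10 OE held more than 1 E2F3 region. Pairs with 50% reciprocal overlap made up 15.1% of the E2F3 list, with a median summit distance of 63 bp.

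Summits of H3K27me3 and Pol2S5p of H1-10 OE lay farther apart. Their 201 overlapping pairs had summits a median of 463 bp apart (406 to 547), and in 18 pairs (8.96%, 5.74 to 13.7%) the summits were within 100 bp. The regions were staggered in 127 pairs (63.2%), the H3K27me3 region lay inside the Pol2S5p region in 42 (20.9%) and the reverse held in 32 (15.9%). The overlap had a median of 290 bp and was under 100 bp in 34 pairs (16.9%). Requiring 50% reciprocal overlap left 0.141% of the H3K27me3 regions, and requiring the H3K27me3 summit inside the polymerase region left 0.473%. Ctrl had 19 such pairs, with a median of 565 bp (257 to 1616).

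**Figure D2:**
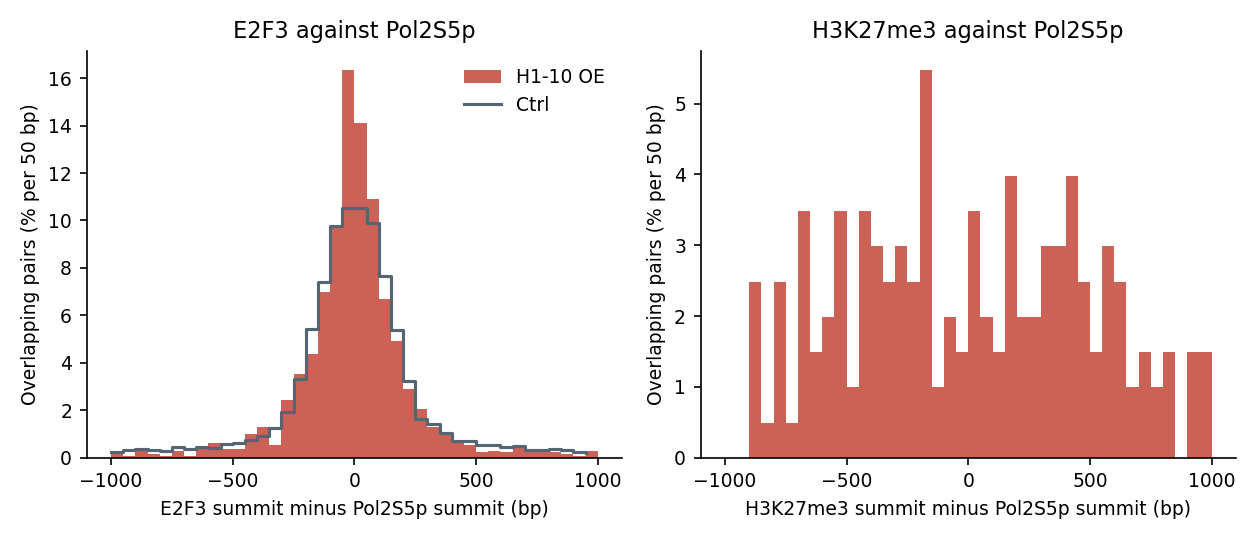
Signed distance between summits of overlapping pairs in 50-bp steps (horizontal axis, bp; vertical axis, percent of pairs per step). Left, E2F3 minus Pol2S5p in H1-10 OE (red bars, 1304 pairs) and Ctrl (grey line, 15855 pairs), both peaked at 0; right, H3K27me3 minus Pol2S5p in H1-10 OE (201 pairs), spread over the whole range with a median distance of 463 bp.

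The joint E2F3 and Pol2S5p sites of H1-10 OE were divided into 2 groups by the polymerase list of Ctrl. Whether they form separate classes without this division was not tested. In 510 of the 1304 pairs the E2F3 region also overlapped a Pol2S5p region of Ctrl. There the Pol2S5p region of H1-10 OE was wide (median 1713.5 bp) and of high fold enrichment (median 18.6), the E2F3 region was narrow (372.5 bp) with a fold of 4.76, and the summits were 179 bp apart (159 to 206). In the other 794 pairs the Pol2S5p region had a median width of 460.5 bp and a fold of 6.05, the E2F3 region had a width of 531 bp and a fold of 8.60, and the summits were 72 bp apart (64 to 77). By these medians Pol2S5p regions were thus wider than E2F3 regions in the pairs also on Pol2S5p of Ctrl, and narrower in the others. Widths were not compared within pairs.

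Fold enrichments followed the same division. Across all 1304 pairs of H1-10 OE, which come from the same 2 libraries, the E2F3 and Pol2S5p folds had a Spearman correlation of −0.350. Within the 510 pairs also in Pol2S5p of Ctrl it was −0.158, and within the other 794 it was 0.254, so the value within either group was nearer to 0 or positive. In Ctrl the correlation over 15855 pairs was 0.208. Each fold is the authors' own value and was ranked within its own list.

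Of the 1271 joined regions of H1-10 OE with Pol2S5p and E2F3, 463 (36.4%) overlapped both Pol2S5p and E2F3 of Ctrl. A further 740 (58.2%, 55.5 to 60.9%) overlapped none of the 3 Ctrl lists. Of the regions with a single target, 38.2% of Pol2S5p, 94.4% of H3K27me3 and 95.6% of E2F3 overlapped none. The joint regions thus lay between those of Pol2S5p alone and E2F3 alone, so overlapping no Ctrl list is not particular to them. The siCtrl polymerase list, which is longer, overlapped 709 of the 1271 (55.8%). These joint regions were scattered: they fell in 931 windows of 500 kb, 721 of which held a single one.

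A few windows held clusters of joint sites, and in some of these windows Ctrl had regions of both targets. On chromosome 8, the window from 37 to 37.5 Mb held 12 joint regions in H1-10 OE, with 31 Pol2S5p and 18 E2F3 regions in all, against 0 Pol2S5p regions and 1 E2F3 region in Ctrl. On chromosome 7, the window from 114 to 114.5 Mb held 8 joint regions among 8 Pol2S5p and 24 E2F3 regions of H1-10 OE, against 0 of either in Ctrl. On chromosome 17, the window from 69 to 69.5 Mb held 7 joint regions among 7 Pol2S5p and 11 E2F3 regions of H1-10 OE, again against 0 of either in Ctrl. Other clusters lay in windows where Ctrl had both targets, but mostly not at the joint sites themselves. In the windows that follow, in order, 1, 1 and 0 joint regions overlapped Pol2S5p of Ctrl. For E2F3 of Ctrl these counts were 2, 1 and 0. On chromosome 10, the window from 77 to 77.5 Mb held 7 joint regions among 12 Pol2S5p and 10 E2F3 regions of H1-10 OE, against 1 Pol2S5p and 12 E2F3 regions in Ctrl. On chromosome 7, the window from 80.5 to 81 Mb held 7 among 7 and 21, against 3 and 5 in Ctrl. On chromosome 13, the window from 72 to 72.5 Mb held 6 among 7 and 49, against 2 and 6 in Ctrl. H3K27me3 had 0 regions in either state in all 6 windows.

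The joint H3K27me3 and Pol2S5p regions of H1-10 OE were mostly places where E2F3 had been listed in Ctrl. Of the 172, 126 (73.3%, 66.2 to 79.3%) overlapped an E2F3 region of Ctrl, 89 (51.7%) a Pol2S5p region of Ctrl and 31 (18.0%) an H3K27me3 region of Ctrl. By comparison E2F3 of Ctrl was found at 13257 of the 39164 regions of H1-10 OE with Pol2S5p alone (33.9%), and at 482 of the 18205 with H3K27me3 alone (2.65%). The regions held by a single target of H1-10 OE lay largely where Ctrl had no region for E2F3 and H3K27me3: 2866 of the 2998 with E2F3 alone (95.6%) and 17193 of the 18205 with H3K27me3 alone (94.4%) overlapped no Ctrl list. For Pol2S5p alone that held for 14969 of 39164 (38.2%). Most regions with Pol2S5p alone were in the longer siCtrl polymerase list, which overlapped 35140 of the 39164 (89.7%). It also overlapped 149 of the 172 regions with H3K27me3 and Pol2S5p (86.6%). The joint H3K27me3 and Pol2S5p regions are also the widest class, and the part of width in their overlap with E2F3 of Ctrl was not tested.

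Regions of H1-10 OE that did not overlap were usually far apart. The median distance from an E2F3 summit to the nearest Pol2S5p summit was 20.0 kb (17.3 to 22.0) in H1-10 OE and 0.244 kb in Ctrl. This distance had 2 parts, since 30.5% of the E2F3 summits of H1-10 OE had polymerase within 1 kb, while the E2F3 regions that did not overlap polymerase lay a median of 56.2 kb away (51.5 to 61.1). For non-overlapping E2F3 regions of Ctrl the median was 52.3 kb (49.1 to 54.6). For the E2F3 regions off polymerase the intervals of the 2 states thus overlapped, and the medians over all regions differed with the share that lay on it.

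H3K27me3 of H1-10 OE lay farther from polymerase than E2F3 did in the full lists, and not with equal numbers of the strongest peaks. The median from an H3K27me3 summit to the nearest Pol2S5p summit was 207 kb (203 to 211) in H1-10 OE and 72.2 kb in Ctrl. Within 5 kb lay 3.04% of the H3K27me3 summits of H1-10 OE, within 100 kb 27.1%, and 19.7% were more than 500 kb away. From H3K27me3 to the nearest E2F3 summit the median was 977 kb in H1-10 OE and 16.7 kb in Ctrl. E2F3 lay within 100 kb of 2.72% of the H3K27me3 summits in H1-10 OE and of 87.1% in Ctrl. The E2F3 list was the shorter one in H1-10 OE, which lengthens any distance to it. With equal numbers of the strongest peaks this difference in distance to polymerase was no longer seen. The median in H1-10 OE was 389 kb (376 to 400) from H3K27me3 to Pol2S5p and 411 kb (383 to 436) from E2F3 to Pol2S5p. These intervals overlapped.

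**Figure D3:**
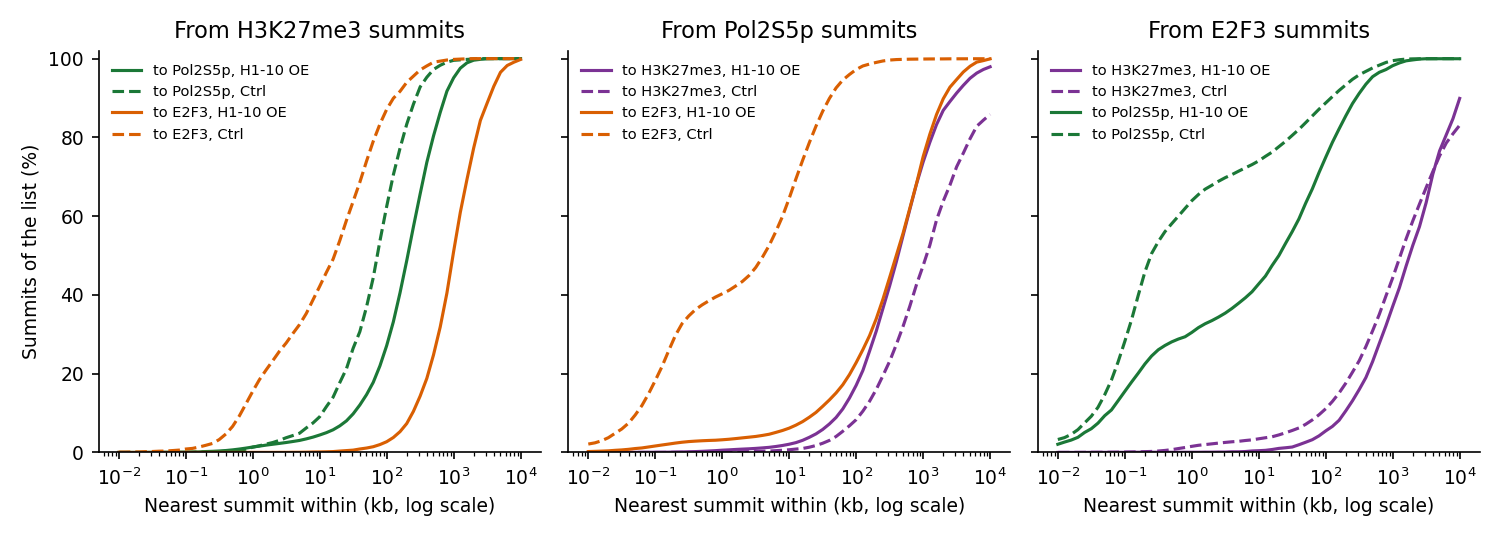
Percent of summits (vertical axis) with the nearest summit of another target within a given distance (horizontal log axis, kb), for H3K27me3, Pol2S5p and E2F3 lists of H1-10 OE (solid) and Ctrl (dashed). The E2F3 to Pol2S5p curve of H1-10 OE stands at 30.5% at 1 kb and 75.0% at 100 kb; the H3K27me3 to E2F3 curve of H1-10 OE stands at 2.72% at 100 kb.

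Sole occupancy at the scale of 5 kb was therefore common in H1-10 OE. Of the H3K27me3 regions, 17789 (96.7%) had neither other target within 5 kb. The same held for 38067 Pol2S5p regions (93.7%) and 2639 E2F3 regions (61.4%, 60.0 to 62.9%). E2F3 was thus the target that most often had another within 5 kb.

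Along the chromosome the targets of H1-10 OE came in runs of their own kind. After an H3K27me3 region the next listed region was again H3K27me3 in 91.2% of cases, although H3K27me3 made up 29.1% of all regions. After a Pol2S5p region it was Pol2S5p in 90.6%, of a share of 64.2%. E2F3 was followed by E2F3 in 43.2%, of a share of 6.78%, and by Pol2S5p in 53.8%. H3K27me3 followed E2F3 in 3.03% and E2F3 followed H3K27me3 in 0.712% of cases. In Ctrl 62.1% of the H3K27me3 regions were followed by their own kind and 29.9% by E2F3.

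The runs of H3K27me3 lay mostly in long stretches without polymerase. Neighbouring Pol2S5p regions of H1-10 OE left 40601 gaps, with a median of 5.72 kb. The 5704 gaps of at least 100 kb made up 82.5% of the gap length and held 17284 of the 17965 H3K27me3 regions that lay in a gap (96.2%, 95.9 to 96.5%). The density was 7.24 H3K27me3 regions per Mb in long gaps and 1.35 per Mb in shorter ones, against 0.881 and 0.677 per Mb in Ctrl. In H1-10 OE the mark used few of the long gaps, since 1140 of 5704 (20.0%) held any, and 372 gaps with at least 10 each held 15031 regions (82.6% of the regions with H3K27me3 alone).

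E2F3 of H1-10 OE did not share the preference for long gaps. Of its 2997 regions that lay in a gap, 2448 (81.7%, 80.3 to 83.0%) were in long gaps, beside the 82.5% of gap length that those made up. The density was 1.03 E2F3 regions per Mb in long gaps and 1.09 in shorter ones, while in Ctrl it was 2.21 and 4.24 per Mb. E2F3 without polymerase thus had similar densities in short and long gaps in H1-10 OE and was denser in short gaps in Ctrl. Like H3K27me3, E2F3 of H1-10 OE lay in few of the long gaps, 1115 of 5704 (19.5%). In H1-10 OE 18 gaps with at least 10 each held 435 E2F3 regions (14.5% of those without polymerase).

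The fullest gap of H1-10 OE lay on chromosome 22 from 47169807 to 50050835, with 470 H3K27me3 and 0 E2F3 regions between 2 neighbouring Pol2S5p regions. On chromosome 7 the gap from 157211492 to 158389317 held 406 H3K27me3 regions and 0 of E2F3, and on chromosome 12 the gap from 125671147 to 129275944 held 305 and 0. The gaps fullest of E2F3 all lay on chromosome 13. From 67409813 to 67795807 there were 63 E2F3 regions, and from 67805685 to 70139394 there were 60, with 0 H3K27me3 regions in either. The longest runs of the 2 targets did not mix.

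The chromosomes were used unequally and differently by the 3 targets of H1-10 OE. Among chromosomes 1 to 22 and X, E2F3 was densest on chromosome 13, with 549 regions (12.8% of its list, 11.8 to 13.8%) or 5.72 per Mb, and sparsest on chromosome 22, with 11 regions or 0.314 per Mb. H3K27me3 was the reverse, with 780 regions or 22.3 per Mb on chromosome 22 and 43 regions or 0.448 per Mb on chromosome 13. Among the same chromosomes Pol2S5p was densest on chromosome 19, with 3574 regions or 60.7 per Mb, and sparsest on chromosome 18, with 5.76 per Mb. On chromosome 19 the E2F3 list had 32 regions, or 0.745% of its regions.

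Over 23 chromosomes the densities of E2F3 and Pol2S5p in H1-10 OE had a Pearson correlation of −0.401 and a Spearman correlation of −0.576. In Ctrl they were 0.985 and 0.949. E2F3 and H3K27me3 of H1-10 OE stood at −0.457 and −0.486, against 0.384 and 0.613 in Ctrl. H3K27me3 and Pol2S5p of H1-10 OE stood at 0.638 and 0.645, against 0.395 and 0.641 in Ctrl. These values describe chromosomes that share length, gene content and mappability. H3K27me3 and polymerase of H1-10 OE thus tended to be dense on the same chromosomes, and E2F3 of H1-10 OE on others. Correlations over chromosomes do not show how the targets lay within them.

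The share of E2F3 regions that lay on polymerase changed with the chromosome as well. On chromosome 13 it was 48 of 549 (8.74%, 6.66 to 11.4%), the lowest of 23, and outside chromosome 13 it was 1250 of 3747 (33.4%, 31.9 to 34.9%). It reached 27 of 32 (84.4%) on chromosome 19, 10 of 11 (90.9%) on chromosome 22, 23 of 29 (79.3%) on chromosome 20 and 45 of 67 (67.2%) on chromosome 17. Those 4 chromosomes held 11 to 67 E2F3 regions each, so their intervals are wide. Chromosome 13 held 16.7% of the E2F3 regions without polymerase (15.4 to 18.1%) and 3.70% of those with it (2.80 to 4.87%).

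**Figure D4:**
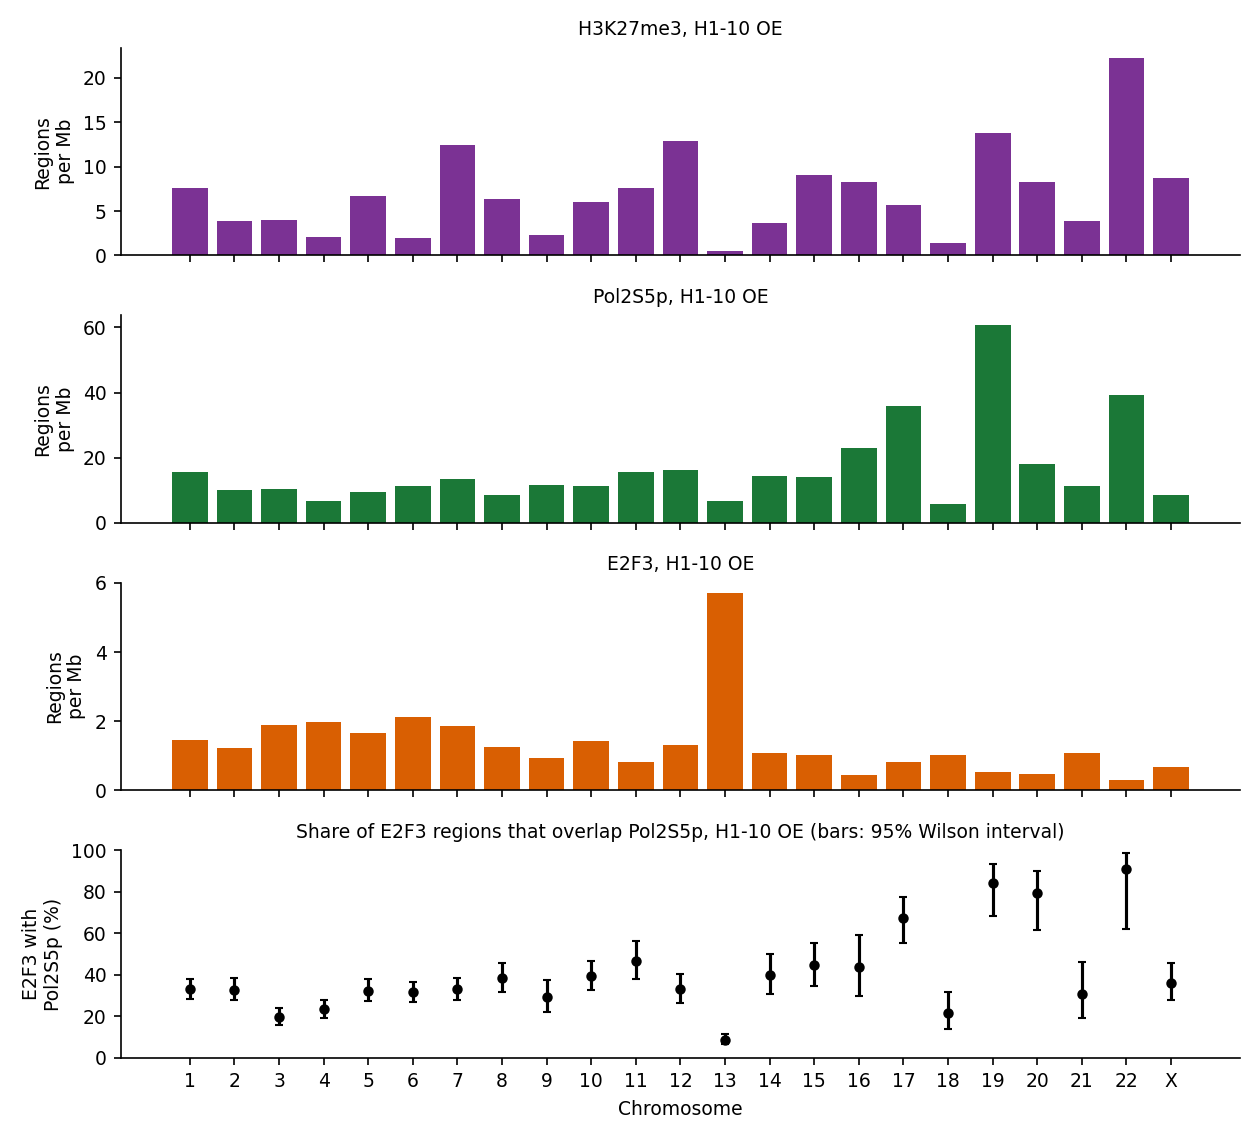
Regions per Mb of H3K27me3, Pol2S5p and E2F3 on each chromosome in H1-10 OE (3 upper panels, bars from 0) and percent of E2F3 regions that overlap Pol2S5p (lowest panel, points with 95% Wilson intervals for counting error). Chromosome 13 has 5.72 E2F3 regions per Mb and a share of 8.74%, and chromosome 19 has 60.7 Pol2S5p regions per Mb and a share of 84.4%.

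Windows of 500 kb, 6022 of which the lists span, are far wider than single regions, so the targets can meet in them more easily by size alone. All 3 were present in 318 windows (5.28%) of H1-10 OE and 511 (8.49%) of Ctrl. Pol2S5p and E2F3 were both present, with or without H3K27me3, in 1616 windows of H1-10 OE and 3847 of Ctrl. H3K27me3 and Pol2S5p were both present in 1269 windows of H1-10 OE and 517 of Ctrl, of which 951 in H1-10 OE and 6 in Ctrl had no E2F3. H3K27me3 stood alone in 717 windows of H1-10 OE and 53 of Ctrl. In H1-10 OE 39.7% of the H3K27me3 length lay in windows with no polymerase, against 10.8% in Ctrl, and 10.3% of the E2F3 length did, against 3.41% in Ctrl.

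Covered lengths per window of E2F3 and Pol2S5p had a Spearman correlation of 0.196 in H1-10 OE and 0.891 in Ctrl, over 6022 windows that share library and mappability. For H3K27me3 and Pol2S5p it was −0.0876 in H1-10 OE and 0.146 in Ctrl. The window with the most length of each target in H1-10 OE held less of the other 2. The window of chromosome 7 from 155.5 to 156 Mb had 149 kb of H3K27me3, 1.64 kb of Pol2S5p and 0 kb of E2F3. The window of chromosome 11 from 0.5 to 1 Mb had 140 kb of Pol2S5p, 1.25 kb of H3K27me3 and 0 kb of E2F3, although E2F3 covered 39.5 kb of it in Ctrl. The window of chromosome 13 from 67.5 to 68 Mb had 32.3 kb of E2F3 in 61 regions, 2.58 kb of Pol2S5p and 0 kb of H3K27me3.

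Strong E2F3 regions of H1-10 OE lay on polymerase far more often than weak ones. Ranked by −log10 p and divided into 10 classes of equal size, 7.46% of the weakest and 76.7% of the strongest class overlapped Pol2S5p. In Ctrl these shares were 42.5% and 97.1%. The reverse view differed more between the states: of the strongest class of the Pol2S5p list, 6.35% overlapped E2F3 in H1-10 OE and 97.8% in Ctrl. Over all Pol2S5p regions the shares were 3.15% in H1-10 OE and 39.9% in Ctrl. Even the strongest polymerase regions of H1-10 OE were thus mostly without a listed E2F3 region. The E2F3 list had 4296 regions in H1-10 OE and 22988 in Ctrl, and a shorter list bounds how many Pol2S5p regions can overlap it.

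The E2F3 regions of H1-10 OE on polymerase had a median width of 448 bp and a median fold of 6.45, and 81.4% had a −log10 q of at least 5. Those alone had 360 bp, a fold of 5.70 and 47.0%. The H3K27me3 regions on polymerase had a median width of 719 bp and a fold of 4.75, and 45.3% had a −log10 q of at least 5, while those alone had 432 bp, 4.38 and 18.7%. Shared regions were the wider ones in both lists, and a wider region has more bases to overlap with.

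**Figure D5:**
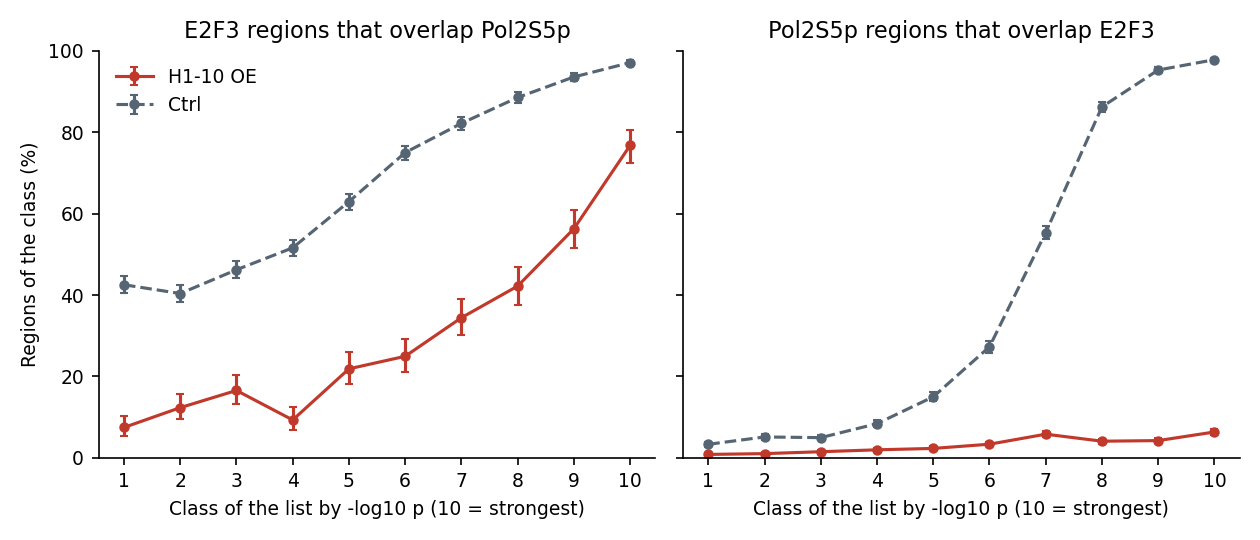
Percent of regions in each of 10 classes of a list, ranked by −log10 p (horizontal axis, 10 the strongest), that overlap the other target in H1-10 OE (solid red) and Ctrl (dashed grey), with 95% Wilson intervals for counting error. The strongest class of E2F3 stands at 76.7% in H1-10 OE and 97.1% in Ctrl (left), and the strongest class of Pol2S5p at 6.35% in H1-10 OE and 97.8% in Ctrl (right).

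Single regions with the highest combined ranks show what the classes look like. Positions are 1-based on hg19 and are given without gene names, since no gene annotation of that build was used here. The strongest joint E2F3 and Pol2S5p region of H1-10 OE lay on chromosome 6 at 27859779 to 27863686, with folds of 31.8 for E2F3 and 32.7 for Pol2S5p and summits 1424 bp apart. The next lay on chromosome 7 at 148580404 to 148583920, with folds of 7.96 and 39.7 and summits 295 bp apart. Both overlapped both lists in Ctrl. The region on chromosome 13 at 67409050 to 67410034 had folds of 23.4 for E2F3 and 22.1 for Pol2S5p and summits 18 bp apart. It overlapped no region of either target in Ctrl, while the siCtrl polymerase list did hold one.

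The strongest joint H3K27me3 and Pol2S5p region of H1-10 OE lay on chromosome 21 at 36260066 to 36264357, with folds of 6.57 for H3K27me3 and 22.0 for Pol2S5p and summits 2304 bp apart. The region on chromosome 6 at 44264492 to 44267619, had folds of 7.17 and 11.9 and summits 350 bp apart. Another, on chromosome 19 at 55962403 to 55964795, had folds of 10.8 and 13.2 and summits 1101 bp apart. All 3 overlapped an E2F3 region of Ctrl and a Pol2S5p region of siCtrl.

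The 2 places with all 3 targets in H1-10 OE had low folds. On chromosome 7 at 61968703 to 61969763 the folds were 1.48 for H3K27me3, 2.33 for Pol2S5p and 3.89 for E2F3, and on chromosome 1 at 121484315 to 121485458 they were 1.27, 2.41 and 4.29. The median folds of the whole lists were 4.38, 5.51 and 5.91. By position both places lie near a centromere on hg19, where repeats can gather reads in any library. Their distances to gaps of the assembly were not measured. No list of such places was used here, and its part in the result was not tested.

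Each list of H1-10 OE also held strong regions more than 5 kb from both other targets. For Pol2S5p the leading ones, on chromosome 1 at 149222292 to 149225044 and on chromosome 12 at 120727849 to 120731374, had folds of 68.4 and 68.3. Both overlapped Pol2S5p and E2F3 regions of Ctrl, so polymerase was listed there in both states and E2F3 in Ctrl. For H3K27me3 the fold was 19.0 in the region on chromosome 8 at 86556000 to 86557049 and 12.5 in that on chromosome 17 at 79916915 to 79919159. For E2F3 it was 36.7 on chromosome 2 at 68272249 to 68274346 and 32.3 on chromosome 13 at 64091352 to 64092107. A pair of the leading E2F3 regions lay on chromosome 16 at 46390684 to 46393381 and at 46395004 to 46395542, with folds of 23.7 and 36.7. By position this pair also lies near a centromere, and its distance to a gap of the assembly was not measured.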

How the data were processed

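Peak lists of H3K27me3, Pol2S5p and E2F3 in H1-10 OE and Ctrl, and of Pol2S5p in siCtrl, were read as deposited. The tools named are Bowtie, fastp and FastQC with hg19, per the submitters' processing notes; not given in the sources used here are versions, peak caller, threshold and which input each list rests on. Each list belongs to 1 library, so replicates were not pooled. The deposited columns hold a fold enrichment, which is a ratio to the authors' background, and −log10 p and −log10 q of the authors' caller. These values of the authors served to describe, rank or filter peaks within their own list. The folder label inside peak names is another one for E2F3 than for H3K27me3 and Pol2S5p, so overlaps with E2F3 cross it, and its part was not tested. E2F3 libraries have inputs of their own, per the labels.

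Rows that overlapped or touched were joined across the 3 lists and placed in classes by the targets held. Sharing meant an overlap of at least 1 bp. Summits are the peak start plus the deposited offset. Shares carry 95% Wilson intervals, differences Newcombe intervals, and medians binomial order-statistic intervals. Windows were 500 kb, gaps between Pol2S5p regions were long from 100 kb, and lists were ranked in 10 equal classes. Regions are not replicates and no p-value was computed. Named regions are those with the highest sum of within-list ranks of −log10 q in each class, or the highest −log10 q among regions with no other target within 5 kb, the windows with the most length of a target, and windows or gaps with the most regions, of which the windows of joint regions and the gaps were chosen after their values were seen; not all are printed. Members and lists were chosen with earlier results of these data known. Counts at promoters and for gene lists were not run, since no hg19 annotation was used here. Overlap code was tested on simulated lists and against bedtools 2.31.1. The scripts ran in Python 3.11.15 (scipy 1.17.1, numpy 2.4.6, matplotlib 3.10.9, pandas 2.3.3). Read depth is unknown here. Alternatives were equally many of the strongest peaks per list, 50% reciprocal overlap, a −log10 q of 5 or more, the summit inside the other region, peaks within 1 kb merged, the siCtrl list for Pol2S5p, and lists without chromosome 13.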

Additional observations from a re-analysis of the deposited data

How the results depend on the processing

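Of 79 alternative values for 18 leading results, 31 stayed within 1.5 times the count or within the counting interval of the reported value. The other 48 moved. Only the differences between H1-10 OE and Ctrl carry a sign, and 0 of them changed it. Counts, shares and distances have no direction to change. With equal numbers of the strongest peaks the intervals of the median distances of H3K27me3 and E2F3 to Pol2S5p overlapped, unlike in the full lists. The cause of the moves was not tested except that stricter settings keep fewer peaks. Joint Pol2S5p and E2F3 regions (1271) numbered 266 with equal numbers of the strongest peaks and 753 with the siCtrl list. Joint H3K27me3 and Pol2S5p regions (172) numbered 53 at −log10 q of at least 5, 4 with equal numbers and 302 with siCtrl. H3K27me3 with E2F3 alone numbered 2 with siCtrl, and all 3 targets 1 at the stricter q, 1 with equal numbers and 0 with siCtrl. The share of H3K27me3 on Pol2S5p (1.03%) was 0.141% by 50% reciprocal overlap, 0.473% by the summit, 1.66% at the stricter q, 0.116% with equal numbers, 1.21% with peaks merged and 1.89% with siCtrl. The share of E2F3 on Pol2S5p (30.2%) was 15.1% by reciprocal overlap, 28.6% by the summit, 36.4% at the stricter q, 6.54% with equal numbers, 18.2% with siCtrl and 33.4% without chromosome 13. The median summit distance of E2F3 and Pol2S5p (96 bp) was 63 by reciprocal overlap, 207 with equal numbers and 159 with siCtrl; that of H3K27me3 and Pol2S5p (463 bp) was 156 by reciprocal overlap and 623 at the stricter q, with too few pairs for a value with equal numbers. The median from E2F3 to Pol2S5p (20.0 kb) was 16.8 at the stricter q, 411 with equal numbers, 44.9 with siCtrl and 14.1 without chromosome 13; from H3K27me3 to Pol2S5p (207 kb) it was 194, 389 with equal numbers and 191 with siCtrl; from E2F3 to H3K27me3 (1774 kb) it was 3538 at the stricter q, 3750 with equal numbers and 1426 without chromosome 13. At the stricter q, chromosome 13 held 8.68% and chromosome 19 1.18% of E2F3, 112 windows held all 3 targets (111 with equal numbers) and 397 windows held H3K27me3 without Pol2S5p (758 reported). The difference between H1-10 OE and Ctrl in E2F3 on Pol2S5p (−37.8 points) was −24.1 by reciprocal overlap and −33.2 at the stricter q; in H3K27me3 on Pol2S5p (0.285) it was 1.36 at the stricter q, with an interval of 0.507 to 1.89; in H3K27me3 on E2F3 (−8.26) it was −1.21 by reciprocal overlap, −2.51 by the summit, −10.3 at the stricter q and −11.2 with peaks merged. Of 29 alternative values for 5 other counts and shares, which carry no sign, 17 moved. No paired analysis was possible because each group had 1 library.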
